A study of Mus musculus with 12 samples.

Results

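Hearts that met pressure overload without dietary branched-chain amino acids (BCAA: leucine, isoleucine and valine) were set against hearts that met neither the overload nor the diet. The comparison used 6 of the 12 libraries of the series: 3 from BCAA-free TAC hearts and 3 from control diet sham hearts. In transverse aortic constriction (TAC) the aorta is narrowed, which raises the pressure the left ventricle works against; sham animals had surgery without the narrowing. All mice were male C57Bl/6J of 12 weeks. Each diet began 4 days before surgery and went on until the hearts were taken 1 week after it. BCAA-free TAC hearts came from mice fed no BCAA that had TAC. Control diet TAC hearts, 3 libraries, came from mice that had TAC while fed BCAA at the content of standard chow, and BCAA-free sham hearts, also 3, from mice fed no BCAA that had sham surgery. Control diet sham hearts came from mice on the BCAA-containing diet with sham surgery. Whole reads were recovered from the normalized values of 2 deposited tables, 1 with each group, and joined over 17493 genes, and the 17461 that averaged 10 normalized reads or more were tested. The 2 groups differ in both diet and surgery, and the part of each in a difference between them cannot be told apart from these 6 libraries alone. The labels name the heart, not a chamber, and do not say whether each replicate was its own animal; the p-values describe the scatter among these libraries, and that scatter may be technical.

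Pressure overload makes cardiac muscle cells grow and turn on genes of the fetal heart, among them the natriuretic peptides and skeletal alpha-actin. It also makes fibroblasts divide and lay down collagen, which stiffens the wall. The heart breaks down BCAA in mitochondria: a transaminase removes the amino group, and the branched-chain ketoacid dehydrogenase commits the carbon skeleton to oxidation. Leucine also signals through the kinase complex mTORC1, which drives protein synthesis and growth.

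The libraries held 80536721, 82846231 and 76646229 reads in BCAA-free TAC 1, 2 and 3 and 96370433, 86160429 and 110452636 reads in control diet sham 1, 2 and 3. Cardiac muscle genes marked all of them as heart: the 12 cardiomyocyte markers summed to between 8047625 and 8344590 normalized reads (reads divided by a size factor per library) in BCAA-free TAC and between 6950561 and 7245850 in control diet sham. Libraries differed within groups in the structured RNAs Rn7sk, Rmrp and Rpph1, which came to 63.6, 7.79 and 76.1 CPM in BCAA-free TAC, against 2.99, 115.5 and 2.06 in control diet sham. The first principal component of the 6 libraries (34.5% of the variance) set the BCAA-free TAC libraries, at -26 to -16.6, apart from control diet sham, at 2.4 to 32.7. The second component (20.3%) set control diet sham 2 apart, at -31.3, from the other 5 libraries, at -6.72 or higher. The part of these differences between libraries in the results was not tested except by leaving libraries out, as given below.

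Few genes passed the test between overloaded hearts on the BCAA-free diet and unloaded hearts on the control diet. By limma, 294 of 17461 genes (1.68%) differed at a Benjamini-Hochberg adjusted p under 0.05, 130 of them higher in BCAA-free TAC (0.745%) and 164 lower (0.939%). At an unadjusted p under 0.05 there were 3382. Of the 294, 53 differed by at least 2-fold, 36 higher and 17 lower. The 95% interval of the log2 difference lay within 1.5-fold either way for 10992 genes (63%). Beside these, control diet TAC against the same control diet sham libraries gave 2585 called genes of 17361 tested (14.9%; 9.45% higher and 5.44% lower), 878 of them at least 2-fold, and BCAA-free TAC against control diet TAC gave 2922 of 17403 (16.8%), 1042 higher (5.99%) and 1880 lower (10.8%). BCAA-free sham against control diet sham gave 658 of 17380 (3.79%), and BCAA-free TAC against BCAA-free sham 1369 of 17493 (7.83%; 3.37% higher and 4.46% lower). Leaving out 1 library moved these counts: without control diet TAC 3 the first 2 gave 4527 and 5915 calls, and without any other single library 1280 to 1759 and 1149 to 2059. These comparisons share libraries, so their values are given side by side and not as independent evidence. The number of calls depended on the tool and on single libraries: edgeR called 237 and DESeq2 1206 genes. Without BCAA-free TAC 1, 2 or 3 limma called 117, 110 or 39 genes, and without control diet sham 1, 2 or 3 it called 390, 532 or 51. Without BCAA-free TAC 1 and 3 and control diet sham 2, the 3 libraries highest in structured RNAs, it called 120, of which 37 were among the 294; the lone BCAA-free TAC library was then assumed to vary like the others. Of the 294 genes, 30 were called in all 6 fits that left out 1 library, 12 higher and 18 lower.

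To ask which genes the diet left near normal under load, responders were defined as genes called and changed at least 2-fold between control diet TAC and control diet sham. There were 878, of which 699 rose and 179 fell with TAC. In BCAA-free TAC hearts the responders that rose had a median log2 difference from control diet sham of 0.20, with quartiles of -0.16 and 0.51, beside 1.44 in control diet TAC. Responders that fell had a median of -0.285, with quartiles of -0.50 and -0.07, beside -1.23. In BCAA-free sham hearts the median difference from control diet sham was -0.35 for the risen responders and 0.16 for the fallen. BCAA-free hearts without load were thus not at the control diet sham level for these genes by median. The median over all genes tested in both comparisons was 0.00247 in BCAA-free TAC. Toward the sham level, 689 responders (78.5%) differed between BCAA-free TAC and control diet TAC, beside 16.8% of all genes in either direction. The responders were chosen for their distance from sham in the same control diet TAC libraries. That choice makes the control diet TAC medians large and favours a difference toward sham.

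A position near sham was shown for 177 of the 878 responders (20.2%), whose 95% interval lay within 1.5-fold of control diet sham; 133 had risen and 44 had fallen with TAC on the control diet. The same interval held for 63% of all genes tested, a larger share than among the responders. Another 52 responders (5.92%) were called in the direction of the control diet response, 6.44% of the risen and 3.91% of the fallen. The other calls were 11, all of which had risen with TAC on the control diet and were called lower than sham. They made up 1.57% of the risen responders. Of all genes tested, 0.745% were called higher and 0.939% lower. The responders were chosen against the same control diet sham libraries, which favours calls in the direction of the control diet response. The counts of 52 and 11 were 123 and 55 with DESeq2 and 56 and 8 with edgeR. With all 12 libraries in the fit the opposite calls numbered 2, and without limma's robust option 6. The remaining 638 (72.7%) were neither near nor called, so that their 95% intervals held both values within 1.5-fold and values beyond it, or lay beyond it without a call. Without BCAA-free TAC 1 or 3 or control diet sham 3, 18, 9 and 16 responders were called in the direction of the control diet response. Opposite calls numbered 2 or 3 without any of these or BCAA-free TAC 2, 7 without control diet sham 1, and 33 without control diet sham 2. Without the 3 libraries high in structured RNAs the counts were 11 and 12, of which 5 and 4 were among the 52 and the 11, and 290 responders differed toward sham. Intervals were wide for 3 libraries against 3: with a margin of 0.32 on the log2 scale 19 responders were near, and with a margin of 2-fold 487. Of the 177, 81 stayed inside the margin in all 6 fits that left out 1 library of either group, and without the 3 libraries high in structured RNAs 86 genes were responders near sham, 55 of them among the 177.

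**Figure D1:**
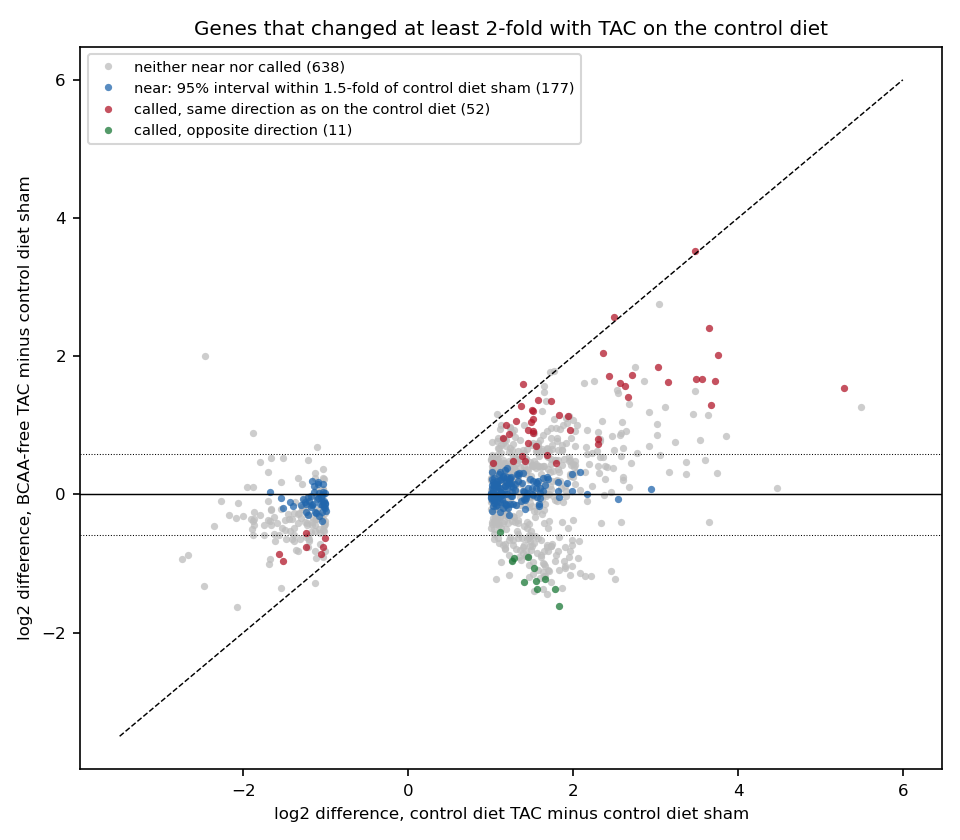
Log2 difference between BCAA-free TAC and control diet sham (vertical axis) against that between control diet TAC and control diet sham (horizontal axis) for the 878 responders, 1 point a gene. The dashed line marks equal differences, the dotted lines 1.5-fold and the colours the 177 near sham, the 52 called in the direction of the control diet response, the 11 called in the opposite one and the 638 others, with the control diet sham libraries shared by both axes.

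Among the risen responders near sham, those with the largest control diet response were Serpinb1a, Fmod, Gdf15, Col16a1, Loxl3, Zfp185, Loxl2 and Dok1. Serpinb1a, an inhibitor of neutrophil serine proteases (GRCm38 chr13:32842092-32851185), had 268, 229 and 343 normalized reads in BCAA-free TAC 1, 2 and 3, 2215, 2585 and 1435 in control diet TAC and 310.2, 237 and 244 in control diet sham. Control diet TAC stood above all the others, and BCAA-free TAC overlapped sham. The log2 difference was 0.08 ± 0.17 (SE) with a 95% interval of -0.31 to 0.46, beside 2.94 ± 0.21 for control diet TAC against control diet sham. The interval stayed within 1.5-fold in 4 of the 6 fits without 1 library.

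Gdf15, a secreted stress cytokine of the TGF-beta family (chr8:70629393-70632456), had 124, 72.1 and 111 normalized reads in BCAA-free TAC, with 377, 641 and 382 in control diet TAC and 102, 109 and 88.7 in control diet sham. The difference from sham was 0.00 ± 0.23 (interval -0.50 to 0.51), beside 2.17 ± 0.23 in control diet TAC. BCAA-free TAC 2 was the lowest of the 6 libraries, and with any 1 library left out the interval reached past 1.5-fold. Loxl2 and Loxl3, enzymes that cross-link collagen, and Col16a1, a collagen of the fibril surface, followed. Loxl2 (chr14:69609068-69695834) had 1709, 1263 and 1789 normalized reads in BCAA-free TAC, with 5239, 6363 and 4465 in control diet TAC and 1513, 1111 and 1610.2 in control diet sham. Fmod, fibromodulin, a proteoglycan that binds collagen fibrils, had 445, 306 and 426 in BCAA-free TAC, with 3872, 3552 and 976 in control diet TAC and 405, 493 and 336 in control diet sham. All control diet TAC libraries were above every BCAA-free TAC library, with library 3 the lowest of them. Without 1 library, the interval of Fmod stayed within 1.5-fold in 3 of 6 fits and that of Loxl2 in 2. Those of Loxl3 and Zfp185 did in 2, that of Col16a1 in 1 and that of Dok1 in 0.

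**Figure D2:**
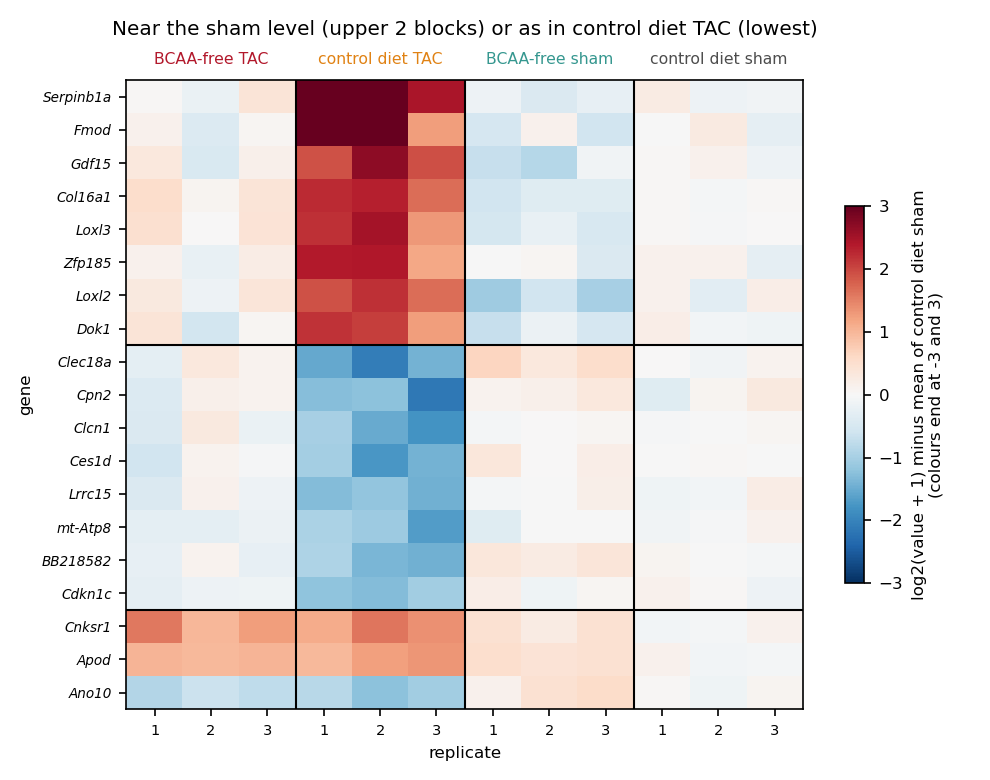
Colours show log2(value + 1) in each library minus the mean of control diet sham for the named genes, 1 row a gene and 1 column a library. In the upper 8 rows (risen with TAC on the control diet) and the next 8 (fallen), BCAA-free TAC libraries are close to control diet sham in colour; in the lowest 3 (Cnksr1, Apod and Ano10) they resemble control diet TAC.

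Of the fallen responders near sham, 30 met the same rule. Those with the largest control diet response were Clec18a, Cpn2, Clcn1, Ces1d, Lrrc15, mt-Atp8, BB218582 and Cdkn1c. Ces1d, a carboxylesterase that hydrolyses lipid esters, had 6228, 10087 and 9084 normalized reads in BCAA-free TAC, with 4631, 2782 and 3484 in control diet TAC and 9310.1, 9518 and 9192 in control diet sham. The BCAA-free TAC values lay on both sides of the sham values. Control diet TAC lay below all of them, which for sham follows from the choice of genes. The differences from sham were -0.17 ± 0.17 in BCAA-free TAC, against -1.39 ± 0.17 in control diet TAC, and the interval of Ces1d stayed within 1.5-fold in 1 of the 6 fits without 1 library. Clcn1, a muscle chloride channel, had 818, 1349.8 and 966 in BCAA-free TAC, with 553, 384 and 318 in control diet TAC and 1077, 1096 and 1142 in control diet sham. Cdkn1c, which encodes the cell cycle inhibitor p57, had 1488, 1603 and 1622 in BCAA-free TAC, with 777, 723 and 873 in control diet TAC and 1960.0, 1818 and 1601 in control diet sham. Its interval (-0.38 to 0.00) stayed inside 1.5-fold in all 6 fits that left out 1 library, as did those of BB218582 and mt-Atp8. Those of Clcn1, Clec18a, Cpn2 and Lrrc15 did in 5, 4, 3 and 3 of the 6. mt-Atp8, a mitochondrially encoded subunit of ATP synthase, was -0.25 ± 0.087 from sham in BCAA-free TAC, against -1.24 ± 0.18 in control diet TAC.

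Not all of the overload response was near sham. For 3 responders BCAA-free TAC differed from control diet sham and its interval lay within 1.5-fold of control diet TAC: Cnksr1, Apod and Ano10, each called in all 6 fits that left out 1 library. Cnksr1, a scaffold protein of Ras signalling (chr4:134228041-134238399), had 1512, 1003 and 1205 normalized reads in BCAA-free TAC, with 1096, 1521 and 1298 in control diet TAC and 473, 484 and 554 in control diet sham. Both TAC groups lay above sham without overlap; the log2 difference was 1.28 ± 0.14 in BCAA-free TAC (adjusted p = 0.00549, limma) and 1.36 ± 0.14 in control diet TAC. Apod, a lipid-binding secreted protein, rose by 1.01 ± 0.091 (adjusted p = 0.00211), with 1060.2, 1020.5 and 1065 normalized reads in BCAA-free TAC, against 573, 495 and 500.1 in control diet sham. Ano10, a member of the anoctamin membrane protein family, fell to 1974, 2352 and 2156 in BCAA-free TAC, against 3767, 3362 and 3843 in control diet sham, a log2 difference of -0.76 ± 0.082 (adjusted p = 0.00483). In BCAA-free sham hearts Apod had 738, 692 and 719.8 normalized reads, above control diet sham (0.46 ± 0.092, adjusted p = 0.0294).

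Igfbp2 had the largest log2 difference of all 294 called genes. It encodes a secreted protein that binds insulin-like growth factors (chr1:72824503-72852474). It had 304, 182 and 182 normalized reads in BCAA-free TAC, with 111, 241 and 340.3 in control diet TAC and 14.7, 25.4 and 15.2 in control diet sham. Every BCAA-free TAC library was above every sham library, and the log2 difference was 3.52 ± 0.29 (adjusted p = 0.00146, limma; called in all 6 fits without 1 library). Control diet TAC differed from the same sham libraries by 3.48 ± 0.41. BCAA-free TAC and control diet TAC differed by 0.05 ± 0.38, with an interval of -0.80 to 0.89 that spans more than 1.5-fold either way. Igfbp2 was the 1 called of 14 insulin-like growth factor genes tested, beside 1.68% of all genes. Igf1 itself stood at 0.05 ± 0.14 in BCAA-free TAC, beside 1.40 ± 0.19 in control diet TAC.

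Of called genes that averaged 50 normalized reads or more, the next largest rises included those of Spp1, Serpina3n, Hp, Cidec, Timp1 and Adipoq. Spp1, which encodes osteopontin, a matrix protein made by macrophages and fibroblasts, had 352, 199 and 309 normalized reads in BCAA-free TAC, with 592, 697 and 617 in control diet TAC and 79.2, 90.3 and 63.7 in control diet sham. The log2 difference was 1.84 ± 0.23 (adjusted p = 0.008), beside 3.03 ± 0.18 in control diet TAC, and the call held in all 6 fits without 1 library. BCAA-free TAC lay between the other groups without overlap and was -1.18 ± 0.20 from control diet TAC (adjusted p = 0.00518). Serpina3n and Hp encode acute-phase proteins. Serpina3n stood at 1.73 ± 0.25 (adjusted p = 0.0338), a call lost without any of the libraries except BCAA-free TAC 2 (adjusted p 0.0595 to 0.155), and Hp at 1.71 ± 0.26 (adjusted p = 0.0209), lost without BCAA-free TAC 1, 2 or 3 (0.0583, 0.0545 and 0.0785). Timp1, an inhibitor of matrix metalloproteinases, stood at 1.67 ± 0.30 (adjusted p = 0.0434), a call lost without BCAA-free TAC 1 or 3 or control diet sham 1 or 3 (0.0514 to 0.157). Cidec and Adipoq, fat cell genes, are given with the cell type markers.

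**Figure D3:**
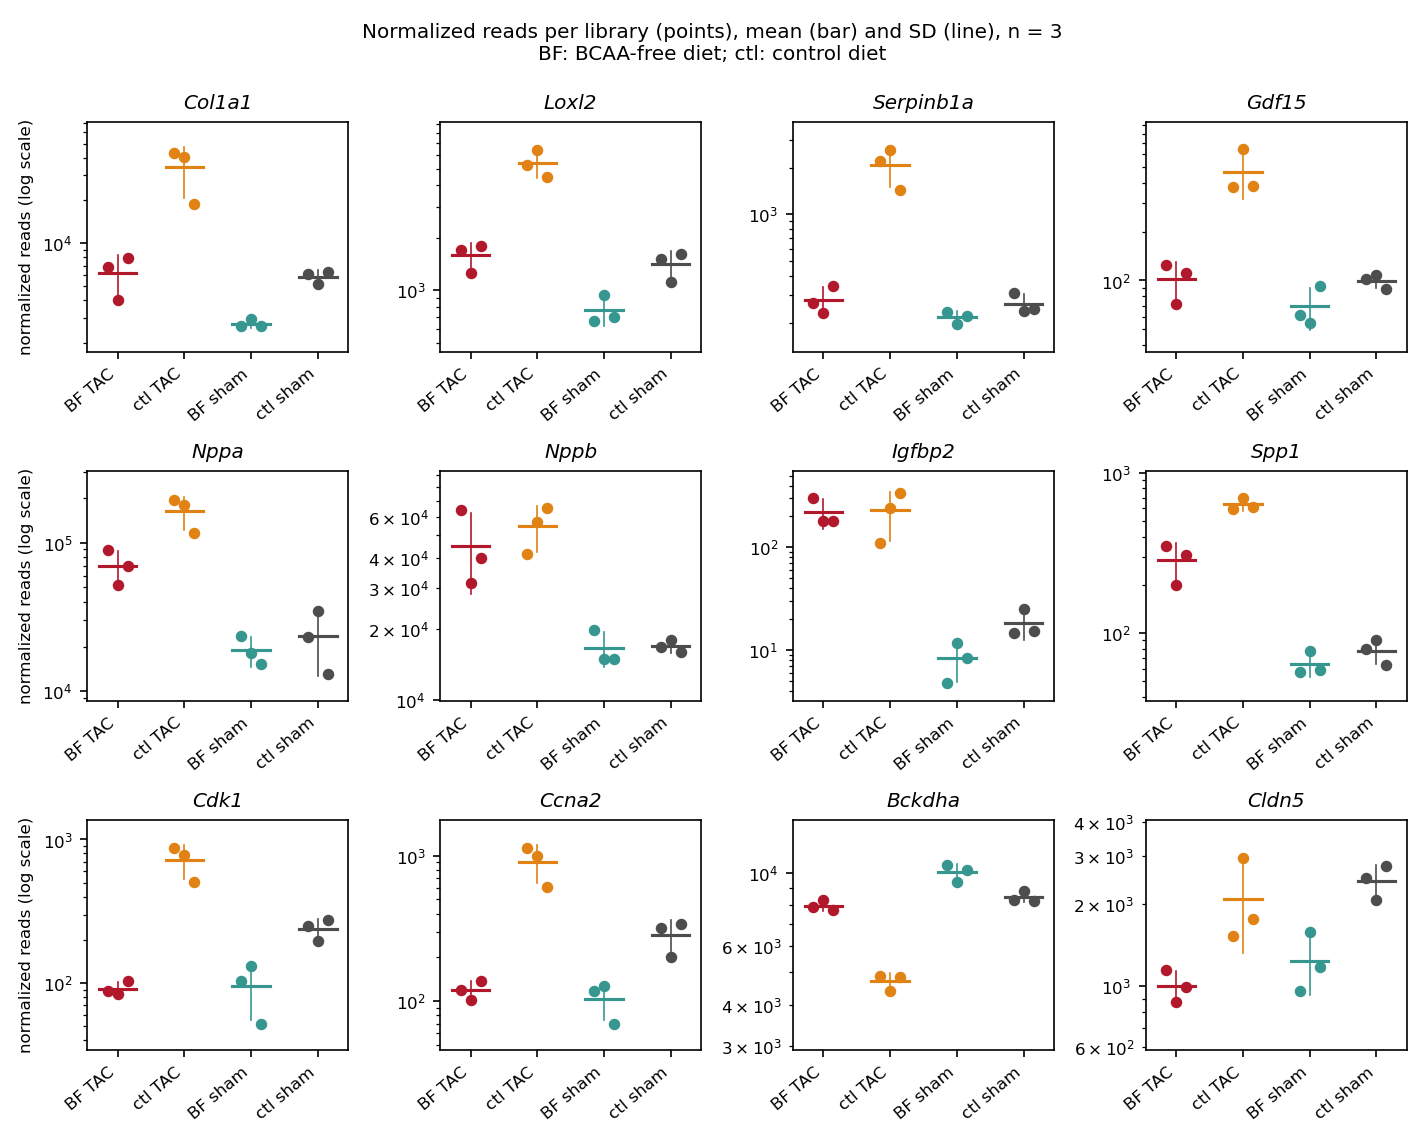
Normalized reads of 12 genes in each library (points, log scale), with the mean as a bar and the SD as a line, in BCAA-free TAC, control diet TAC, BCAA-free sham and control diet sham (n = 3 each). BCAA-free TAC overlaps control diet sham for Col1a1, Loxl2, Serpinb1a, Gdf15 and Bckdha, lies above it for Nppa, Nppb, Igfbp2 and Spp1, and below it for Cdk1, Ccna2 and Cldn5.

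Cardiac stress genes stood, by their median, between the sham and the control diet TAC levels. Of 22 genes tested of a list of natriuretic, stretch and fetal muscle genes, 5 rose and 0 fell (0.745% of all genes were called higher), with a median log2 difference of 0.49 beside 1.46 in control diet TAC. Those called were Clu, Des, Fhl1, Uchl1 and Mybpc2. Des, desmin, the intermediate filament of muscle, had 188645, 175379 and 184107 normalized reads in BCAA-free TAC, with 218548, 228831 and 261077 in control diet TAC and 128382, 131006 and 125458 in control diet sham. BCAA-free TAC lay above sham without overlap (0.51 ± 0.063, adjusted p = 0.008). Clu, clusterin, a secreted chaperone, rose by 0.58 ± 0.071 (adjusted p = 0.008), beside 1.68 ± 0.15 in control diet TAC. Both were called in all 6 fits without 1 library. Fhl1, a muscle LIM protein, lost its call without BCAA-free TAC 3 (adjusted p 0.0614), Uchl1, a ubiquitin hydrolase, without any library except control diet sham 1 (0.0554 to 0.138), and Mybpc2, a myosin-binding protein of fast muscle, without any except BCAA-free TAC 2 (0.0551 to 0.128). The number called was 2 without BCAA-free TAC 3, 3 without control diet sham 3 and 2 without the 3 libraries high in structured RNAs; those 2 were Nppb and Acta1, with 0 of the 5 above. edgeR called 8 of the list and DESeq2 10, each with the 5 among them.

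The natriuretic peptides themselves and Acta1, skeletal alpha-actin, were above sham without a call by limma, while other tools called them. Nppa, atrial natriuretic peptide (chr4:148000722-148002079), had 88579, 52275 and 69063 normalized reads in BCAA-free TAC, with 192733, 178421 and 115477 in control diet TAC and 23194, 34634 and 13001 in control diet sham. The 3 groups did not overlap, and the log2 difference of 1.65 ± 0.44 from sham had an adjusted p of 0.162. Nppb, the ventricular peptide, had 63881, 31239 and 40164 in BCAA-free TAC, with 41530.0, 57119.7 and 65174 in control diet TAC and 16749, 18030.4 and 15959.9 in control diet sham. It was 1.35 ± 0.27 above sham (adjusted p = 0.0852), and BCAA-free TAC overlapped control diet TAC (-0.32 ± 0.25, adjusted p = 0.432). Acta1 had 81358, 38766 and 63364 in BCAA-free TAC, against 19232, 22684 and 21371 in control diet sham (1.47 ± 0.29, adjusted p = 0.0825). By edgeR the adjusted p was 0.0286 for Nppb, 0.0239 for Acta1 and 0.0518 for Nppa, and by DESeq2 it was 0.000466, 3.23e-05 and 0.00901. For Nppb and Acta1 the limma call turned on 1 library: without BCAA-free TAC 2 their adjusted p was 0.032 and 0.000722, and without BCAA-free TAC 1 that of Nppb was 0.00797. Myh7, the slow myosin of the fetal mouse ventricle, stood at 1.00 ± 0.40 (adjusted p = 0.279). Myh6, the adult myosin, stood at 0.10 ± 0.10 and Atp2a2, the sarcoplasmic reticulum calcium pump, at -0.13 ± 0.10, with intervals of -0.13 to 0.32 and -0.34 to 0.08; in control diet TAC they stood at -0.46 ± 0.15 (adjusted p = 0.0732) and -0.81 ± 0.12 (adjusted p = 0.00454).

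Some sarcomere genes rose in BCAA-free TAC by small amounts. Of 20 tested, 6 rose (Tnnc1, Csrp3, Myoz2, Mybpc3, Myl3 and Myom1) and 0 fell, beside 0.745% and 0.939% of all genes. The median was 0.28, beside -0.02 in control diet TAC. Tnnc1, cardiac troponin C, had 265465, 237530.0 and 212641 normalized reads in BCAA-free TAC, against 155368, 166473 and 145139 in control diet sham (0.61 ± 0.090, adjusted p = 0.0142), a call lost without BCAA-free TAC 2 or control diet sham 3 (0.0547 and 0.0519). Mybpc3, a thick filament protein, stood at 0.43 ± 0.071, Csrp3, a Z-disc protein, at 0.45 ± 0.069, and Myoz2, a calcineurin-binding Z-disc protein, at 0.39 ± 0.062. These 3 lost their calls without any of the BCAA-free TAC libraries or control diet sham 3 (0.052 to 0.0844). The count of sarcomere genes called was 0 to 1 without any of those 4 libraries, and without the 3 libraries high in structured RNAs it was 1, Tcap, which is not among the 6. The summed cardiomyocyte markers, several of which are also sarcomere genes, were higher in every BCAA-free TAC library than in every sham library, as given above, with 2 of 12 called (Mybpc3 and Myl3). Their part in the result was not tested. In RNA from whole tissue, fewer cells of a type and less RNA per cell cannot be told apart.

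Matrix genes stood above sham by a smaller median in BCAA-free TAC than in control diet TAC, while their summed reads in BCAA-free TAC overlapped sham. Of 60 collagen and matricellular genes tested, 53 were called higher in control diet TAC than in control diet sham (9.45% of all genes). The median log2 difference there was 1.68. In BCAA-free TAC 4 rose and 1 fell against the same sham hearts, beside 0.745% and 0.939% of all genes. The median was 0.23, with 39 genes above 0 and 21 below. Intervals lay within 1.5-fold for 18 (30%, beside 63% of all genes). At an unadjusted p under 0.05 by limma, 24 were higher and 4 lower, beside 3382 of all 17461 genes in either direction. Against control diet TAC, 54 of the 60 were called lower (10.8% of all genes). Of the list, 48 genes were responders, of which 14 were near sham and 4 called higher in BCAA-free TAC. Summed over the 60, normalized reads ran from 246015 to 331270 in BCAA-free TAC and from 258813 to 340507 in control diet sham. In BCAA-free sham hearts the median log2 difference from control diet sham was -0.53. There 24 of the 60 were called lower (2.34% of all genes). Col1a1, the chief chain of type I collagen (chr11:94936224-94953042), had 6807, 3983 and 7955 normalized reads in BCAA-free TAC, with 42918, 40692 and 18901 in control diet TAC and 6105, 5154 and 6289 in control diet sham. BCAA-free TAC lay on both sides of sham and below every control diet TAC library. The difference was 0.04 ± 0.28 with an interval of -0.67 to 0.76, too wide to meet the margin. Col3a1, type III collagen, had 19198, 10929 and 19738 in BCAA-free TAC, against 20667, 11249.9 and 18298 in control diet sham (-0.01 ± 0.36), beside 2.37 ± 0.26 in control diet TAC.

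The 4 matrix genes that rose were Spp1, Timp1, Lox and Cthrc1. Cthrc1, a secreted protein of activated fibroblasts, had 154, 73.2 and 140.0 normalized reads in BCAA-free TAC, with 1824, 2162 and 992 in control diet TAC and 40.5, 39.6 and 37.9 in control diet sham. It was 1.54 ± 0.28 above sham (adjusted p = 0.0268), beside 5.29 ± 0.27 in control diet TAC, and the call was lost without BCAA-free TAC 1 or 3 or control diet sham 3 (0.0894, 0.107 and 0.0958). Lox, lysyl oxidase, which starts collagen cross-linking, had 1646, 933 and 1510.5 in BCAA-free TAC, against 618, 529 and 486 in control diet sham (1.29 ± 0.21, adjusted p = 0.0371), lost without any library except BCAA-free TAC 2 (0.0622 to 0.157). Serpinh1, a collagen chaperone of the endoplasmic reticulum, fell to 12278, 11643 and 13493 in BCAA-free TAC, against 17370.0, 16561 and 17509.5 in control diet sham (-0.46 ± 0.069, adjusted p = 0.0147), lost without BCAA-free TAC 1 or 2 or control diet sham 3 (0.0526, 0.0559 and 0.0574). Postn, periostin, Thbs4, thrombospondin 4, and Tnc, tenascin C, stood at 0.79 ± 0.26, 1.16 ± 0.25 and 0.85 ± 0.36 without a call by limma (adjusted p = 0.197, 0.0755 and 0.258), beside 3.54 ± 0.25, 3.63 ± 0.14 and 3.85 ± 0.20 in control diet TAC. DESeq2 called all 3 (adjusted p = 0.044, 5.03e-08 and 0.016) and edgeR called Thbs4 (0.0327). BCAA-free TAC 2 was the lowest of its group for Postn, Thbs4, Tnc, Cthrc1, Lox, Col1a1 and Col3a1; without it Postn, Thbs4 and Tnc were called (adjusted p = 0.0279, 0.000722 and 0.0102) and 14 genes of the list rose. Without BCAA-free TAC 1 or 3 or control diet sham 3, 1 gene of the list, Spp1, rose. Without the 3 libraries high in structured RNAs 0 rose and 7 fell by limma (Col4a1, Col4a2, Col6a1, Col6a2, Col6a3, Col15a1 and Fbn1), 0 of them among the 5 above. edgeR called 7 of the list higher and 1 lower, and DESeq2 16 and 2.

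**Figure D4:**
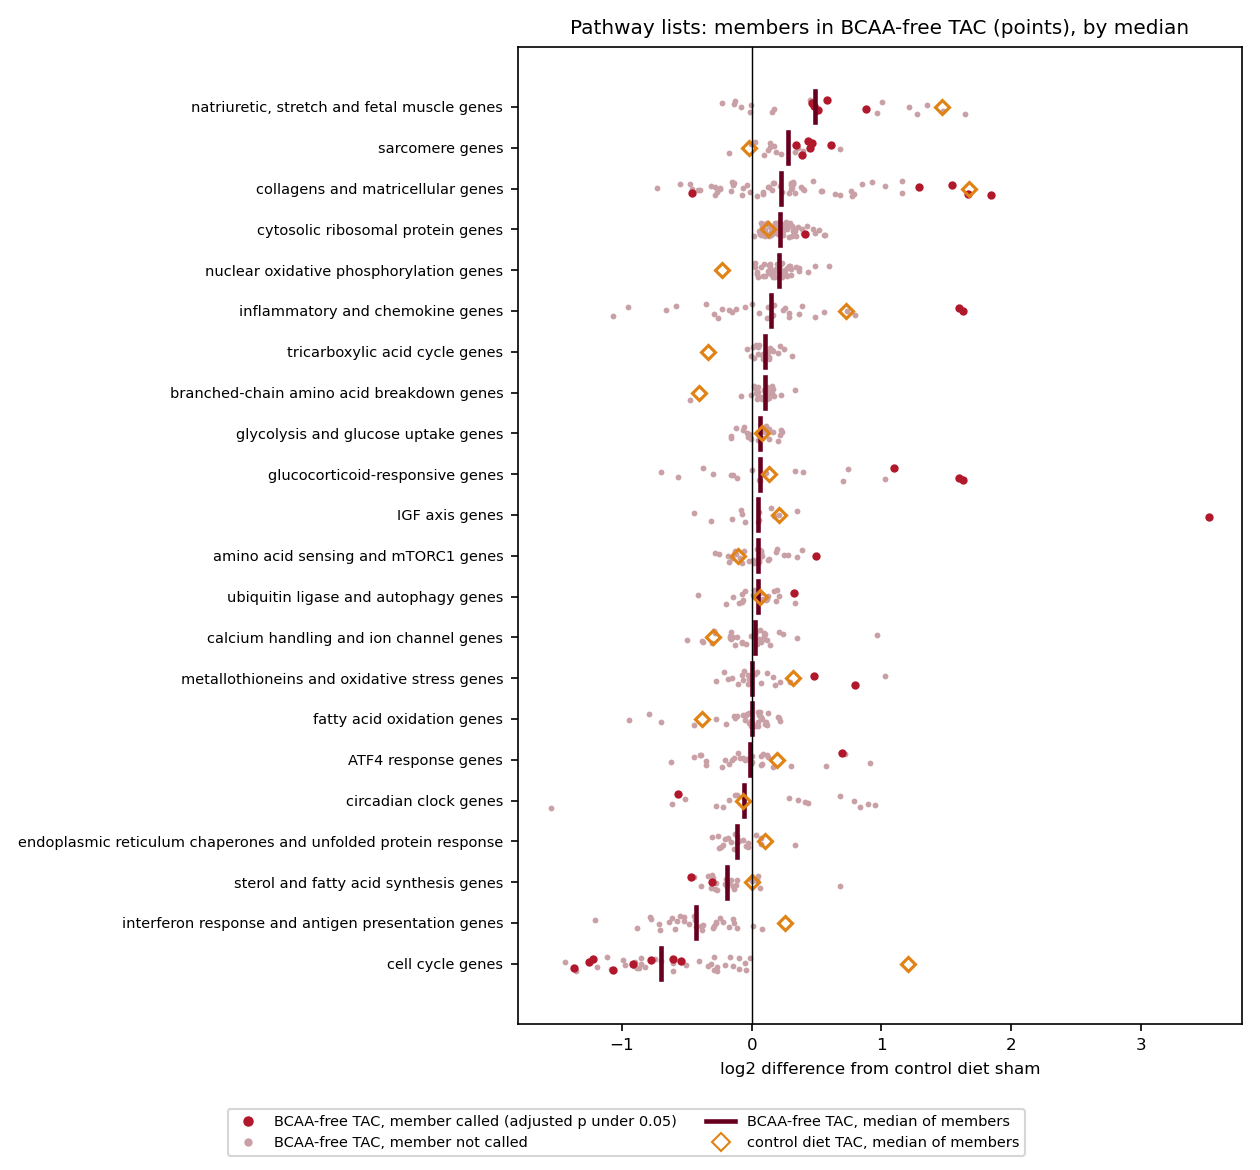
Log2 differences from control diet sham of the members of 22 pathway lists in BCAA-free TAC (points, dark where called, with the median as a bar) and the median of the same members in control diet TAC (open diamonds). Cell cycle genes have a median of -0.70 in BCAA-free TAC, against 1.21 in control diet TAC, and collagen and matricellular genes 0.23 and 1.68.

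Cell division genes stood below the sham level. Of 43 cell cycle genes tested, 8 fell and 0 rose (0.939% of all genes were called lower), and all 43 had a log2 difference below 0 (49.3% of all genes tested did). The median was -0.70 in BCAA-free TAC, beside 1.21 in control diet TAC. In control diet TAC 36 of the 43 were called higher than sham (9.45% of all genes). In BCAA-free sham hearts the median was -0.85 and 12 of the 43 were called lower than control diet sham (2.34% of all genes were called lower there, with 51 to 1087 genes called in either direction without 1 library, the fewest without BCAA-free sham 1 and the most without control diet sham 2). Of the 11 responders called opposite to the control diet response, Ccna2, Ccnb1, Ccnb2, Cdk1, Mcm5 and Top2a were on this list; the others were Kifc1, Nek2, Pbk, Pclaf and Slfn9. The 8 called members of the list were Cdk1, Ccna2, Ccnb1, Ccnb2, Mcm2, Mcm5, Rrm2 and Top2a.

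Promoter windows of these genes are shown because cell cycle genes of the G2 and M phases are known to carry CCAAT boxes, bound by the factor NF-Y, and CHR elements (TTTGAA), bound by the DREAM and MuvB complexes. RefSeq promoters of 300 bases (build GRCm38.p6, from 250 before to 50 after the start) were searched on both strands for the letters CCAAT and TTTGAA, each motif counted on its own. Of the 43 genes 35 matched a promoter, with 39 windows in all. CCAAT was in 33 of these (84.6%), against 37.4% of all 32851 promoters and 37.2% of those of genes tested, and TTTGAA in 21 (53.8%), against 17.9% and 12.3%. The 7 windows of called members all held CCAAT, and 4 of the 7 held TTTGAA. Stretches of 200 bases of these windows, all on the minus strand, are printed 5′ to 3′ for Cdk1 (chr10:69352913-69353112), Ccnb2 (chr9:70421555-70421754) and Top2a (chr11:99024190-99024389), with either motif on either strand in capitals. Each printed stretch holds both motifs. The same stretches of Ccnb1, Mcm5, Kifc1, Nek2 and Pclaf, not printed, held CCAAT but not TTTGAA, and that of Slfn9 held neither. A match of letters is a description of the window, not a site in use.
Cdk1: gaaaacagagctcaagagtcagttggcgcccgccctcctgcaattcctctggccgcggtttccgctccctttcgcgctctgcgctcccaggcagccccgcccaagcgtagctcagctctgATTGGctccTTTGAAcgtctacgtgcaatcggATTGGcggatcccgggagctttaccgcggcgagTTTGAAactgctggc
Ccnb2: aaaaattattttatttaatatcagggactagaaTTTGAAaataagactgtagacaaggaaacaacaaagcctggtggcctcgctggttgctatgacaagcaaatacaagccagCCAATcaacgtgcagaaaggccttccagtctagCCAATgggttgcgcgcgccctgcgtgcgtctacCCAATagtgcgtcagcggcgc
Top2a: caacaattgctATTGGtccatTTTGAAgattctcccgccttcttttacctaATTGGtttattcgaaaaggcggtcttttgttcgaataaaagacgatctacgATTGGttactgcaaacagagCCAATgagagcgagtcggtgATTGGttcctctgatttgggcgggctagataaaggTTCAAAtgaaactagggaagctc

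Cdk1, the kinase that drives entry into mitosis (chr10:69335146-69352938), had 87.6, 84 and 103 normalized reads in BCAA-free TAC, with 870.0, 786 and 503 in control diet TAC, 103, 131 and 51.5 in BCAA-free sham and 250.4, 196 and 273 in control diet sham. Every BCAA-free TAC library was below every control diet sham library (-1.37 ± 0.18, adjusted p = 0.0089), and every control diet TAC library above (1.56 ± 0.22). BCAA-free TAC overlapped BCAA-free sham and stood 0.04 ± 0.30 from it (adjusted p = 0.96). Pbk, a mitotic kinase, was in the same order, at 41, 34.4 and 32.7 in BCAA-free TAC, with 411, 409 and 379 in control diet TAC, 38.5, 48.9 and 15.6 in BCAA-free sham and 117, 96.4 and 123 in control diet sham (-1.61 ± 0.21, adjusted p = 0.0092). Cdk1 and Pbk were called in all 6 fits without 1 library.

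Ccna2, cyclin A2, had 119.8, 102 and 138 normalized reads in BCAA-free TAC, against 317, 201 and 341 in control diet sham (-1.22 ± 0.21, adjusted p = 0.0239), and Ccnb2, cyclin B2, had 64.3, 75.3 and 74.7 in BCAA-free TAC, against 131, 148 and 175 in control diet sham (-1.07 ± 0.18, adjusted p = 0.0229). Both lost their calls without any of the BCAA-free TAC libraries or control diet sham 3 (0.0642 to 0.107). Top2a, the topoisomerase that untangles replicated DNA, stood at -1.25 ± 0.24 (adjusted p = 0.0481), called in 1 of the 6 fits, that without control diet sham 2. Mcm2, of the replicative helicase, had 571, 629.7 and 558 in BCAA-free TAC, against 829, 864 and 992 in control diet sham (-0.61 ± 0.10, adjusted p = 0.0209), lost without BCAA-free TAC 1 or 3 or control diet sham 3 (0.061, 0.0852 and 0.0851). Nek2, a centrosome kinase, had 38.8, 32.3 and 37.3 in BCAA-free TAC, against 85.6, 70 and 142 in control diet sham (-1.37 ± 0.27, adjusted p = 0.0409), and was called without control diet sham 2 but in no other such fit (0.0502 to 0.143). Mki67, the proliferation marker Ki-67, stood at -1.36 ± 0.44 without a call by limma (adjusted p = 0.194), though with one by DESeq2 (0.0275): it had 258, 203 and 279 in BCAA-free TAC, against 881, 315 and 895 in control diet sham, where library 2 was low, and without that library its adjusted p was 0.00135. The count of list members called lower was 17 without control diet sham 2, 7 of the 8 among them, but 1 to 3 without any of the BCAA-free TAC libraries or control diet sham 3. Without the 3 libraries high in structured RNAs it was 8, of which 3 (Cdk1, Ccna2 and Top2a) were among the 8 above and 5 were others, Mki67 among them. edgeR called 6 members lower and DESeq2 23.

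**Figure D5:**
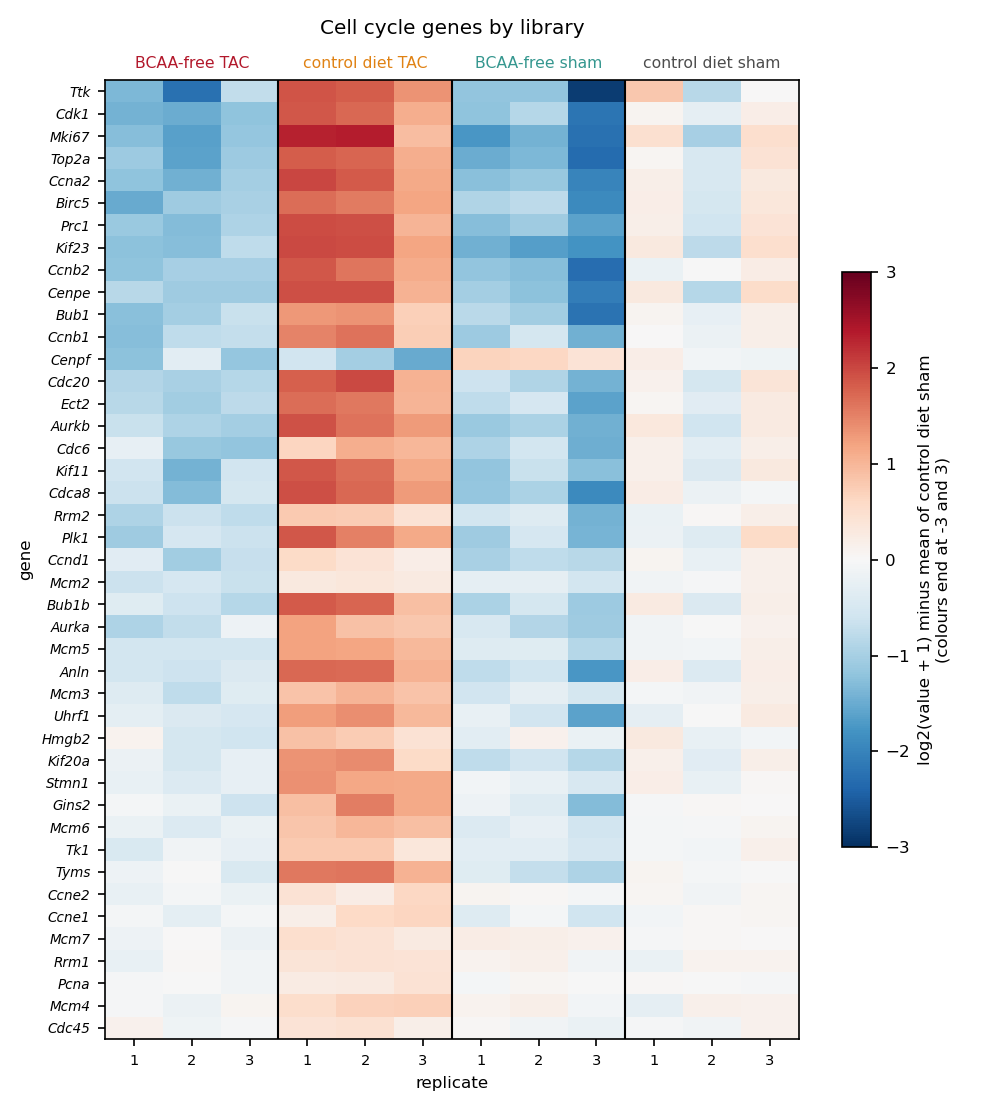
Colours show log2(value + 1) in each library minus the mean of control diet sham for the 43 cell cycle genes, ordered by the log2 difference of BCAA-free TAC from control diet sham. The mean difference is below 0 for all 43 genes in BCAA-free TAC and above 0 in control diet TAC for all except Cenpf.

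Of called genes that averaged 50 normalized reads or more, the other large falls were those of Prnd, F2rl3, Btn2a2, Fosb and Cldn5. Cldn5, the tight junction protein of endothelial cells (chr16:18776847-18778262), had 1143, 876 and 994 normalized reads in BCAA-free TAC, with 1524, 2940.4 and 1766 in control diet TAC, 959, 1575 and 1179 in BCAA-free sham and 2478, 2064 and 2759 in control diet sham. BCAA-free TAC and control diet sham did not overlap, and the difference of -1.27 ± 0.12 (adjusted p = 0.00483) was called in all 6 fits without 1 library. Control diet TAC was not called against sham (-0.28 ± 0.23, adjusted p = 0.458), while BCAA-free sham was (-0.995 ± 0.20, adjusted p = 0.0492). Prnd, a prion-like protein of endothelial cells, had 18.9, 29.1 and 9.33 in BCAA-free TAC, against 116, 53.8 and 84.1 in control diet sham (-2.16 ± 0.42, adjusted p = 0.0375), lost without BCAA-free TAC 1 or 3 or control diet sham 1 or 3 (0.064 to 0.131). F2rl3, a thrombin receptor, stood at -1.44 ± 0.28, lost without BCAA-free TAC 2 or 3 or control diet sham 1 or 3 (0.0653 to 0.106), and Btn2a2, a butyrophilin of antigen-presenting cells, at -1.32 ± 0.22, lost without BCAA-free TAC 1 or 3 or control diet sham 3 (0.0572 to 0.0834). Fosb, an immediate early transcription factor, had 129.8, 157 and 177 in BCAA-free TAC, against 520.1, 377 and 289 in control diet sham (-1.32 ± 0.21, adjusted p = 0.0209), lost without any of the BCAA-free TAC libraries (0.0624 to 0.0701).

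Most genes that break down BCAA were close to the sham level. Of 28 tested, 0 were called by limma in BCAA-free TAC against control diet sham (4 at an unadjusted p under 0.05, 3 of them higher), and likewise 0 by edgeR and DESeq2, and the interval of 26 (92.9%) lay within 1.5-fold, beside 63% of all genes. In control diet TAC 13 of the 28 were called lower than sham (5.44% of all genes). The median log2 difference was -0.41 there, beside 0.10 in BCAA-free TAC. Of the 28, 25 were above 0 in BCAA-free TAC (50.7% of all genes tested were). In BCAA-free sham 7 were called higher than control diet sham (1.45% of all genes) and 0 lower. Bckdha, the E1 alpha subunit of the branched-chain ketoacid dehydrogenase (chr7:25629946-25658981), had 7870.4, 8286 and 7737 normalized reads in BCAA-free TAC, with 4895, 4381 and 4842 in control diet TAC and 8294, 8787 and 8238 in control diet sham. BCAA-free TAC and sham overlapped (-0.08 ± 0.060, interval -0.22 to 0.05), and control diet TAC lay below both (-0.84 ± 0.091 from sham, adjusted p = 0.000991). Bckdhb, the E1 beta subunit, stood at 0.05 ± 0.077 in BCAA-free TAC, against -0.61 ± 0.13 in control diet TAC. Ppm1k, the phosphatase that activates the complex, had 7165, 8679 and 7659.8 in BCAA-free TAC, 10531, 10200.1 and 9752 in BCAA-free sham and 6190.2, 7382 and 6534 in control diet sham. It stood 0.22 ± 0.087 above control diet sham in BCAA-free TAC (adjusted p = 0.2) and 0.60 ± 0.070 in BCAA-free sham (adjusted p = 0.00408). Bcat2, the mitochondrial transaminase, and Bckdk, the kinase that inhibits the complex, stood at 0.12 ± 0.071 and 0.11 ± 0.067.

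Genes of energy metabolism were likewise close to sham. All 22 tricarboxylic acid cycle genes, 29 of 35 fatty acid oxidation genes (82.9%) and 51 of 56 nuclear genes of oxidative phosphorylation (91.1%) had intervals within 1.5-fold, and 0 genes of the 3 lists were called by limma or edgeR. DESeq2 called 2 cycle genes higher, 1 oxidation gene higher and 1 lower, and 13 oxidative phosphorylation genes higher. At an unadjusted p under 0.05 there were 4 higher of the cycle genes, 3 higher and 1 lower of the oxidation genes, and 32 higher and 0 lower of the oxidative phosphorylation genes. All 56 oxidative phosphorylation genes were above 0 (50.7% of all genes tested were). Their median was 0.21, beside -0.23 in control diet TAC. This was not particular to energy genes, as all 75 cytosolic ribosomal protein genes were also above 0, with a median of 0.22. The medians were 0.105 for the cycle genes and 0.00 for the oxidation genes, beside -0.34 and -0.38 in control diet TAC. Pdk4, a kinase that inhibits pyruvate dehydrogenase, varied widely within groups, with 63969.9, 12573 and 17153 normalized reads in BCAA-free TAC, against 25342, 43054 and 65967 in control diet sham. Of 24 genes of glycolysis and 35 of calcium handling and ion channels, 0 were called by limma (5 and 10 at an unadjusted p under 0.05) or edgeR, and 1 and 7 by DESeq2, with medians of 0.07 and 0.02.

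Of genes that respond to amino acid supply, limma called 1 higher and 0 lower in each list, beside 0.745% and 0.939% of all genes. Of 31 genes of amino acid sensing and mTORC1, Eif4ebp1, the repressor of cap-dependent translation (chr8:27260329-27276674), rose. It had 6602, 6251 and 6007 normalized reads in BCAA-free TAC, against 4119, 4721 and 4517 in control diet sham (0.50 ± 0.070, adjusted p = 0.0114), was called in all 6 fits without 1 library, and stood at 0.53 ± 0.11 in control diet TAC. Of 33 genes of the ATF4 response, which amino acid shortage can induce, Nupr1, a stress-induced chromatin protein, rose: it had 674, 639 and 544 in BCAA-free TAC, against 418, 371 and 352 in control diet sham (0.70 ± 0.12, adjusted p = 0.0215), beside 1.55 ± 0.13 in control diet TAC. The call of Nupr1 was lost without any of the BCAA-free TAC libraries or control diet sham 3 (0.054 to 0.0891). Atf4 itself stood at 0.17 ± 0.089 and Asns, asparagine synthetase, an ATF4 target, at -0.44 ± 0.13 (adjusted p = 0.116; 0.041 by DESeq2), with 257, 251 and 265 in BCAA-free TAC, against 298, 394 and 365 in control diet sham.

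Of 33 inflammatory genes 2 rose and 0 fell, beside 0.745% and 0.939% of all genes. Ccl8, a monocyte chemokine, had 128, 59.2 and 103 normalized reads in BCAA-free TAC, against 28.5, 37.5 and 22.7 in control diet sham (1.63 ± 0.31, adjusted p = 0.0352), beside 3.15 ± 0.24 in control diet TAC; the call was lost without BCAA-free TAC 1 or 3 or control diet sham 1 or 3 (0.0502 to 0.12). Lcn2, lipocalin 2, which binds siderophores, had 370.4, 421 and 512 in BCAA-free TAC, against 124, 211 and 109 in control diet sham (1.59 ± 0.24, adjusted p = 0.0192), lost without BCAA-free TAC 2 or 3 or control diet sham 3 (0.0533 to 0.082). Interferon response and antigen presentation genes had a median of -0.43, beside 0.25 in control diet TAC; 0 of 32 were called by limma in BCAA-free TAC, and at an unadjusted p under 0.05, 16 were lower and 0 higher; edgeR called 1 lower and DESeq2 12. Among them Cd74, the invariant chain of class II molecules, had 3837, 2372 and 2438 in BCAA-free TAC, against 5346, 5204 and 5010.3 in control diet sham (-0.88 ± 0.18, adjusted p = 0.0713; 0.0473 by edgeR and 5.69e-06 by DESeq2).

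Ptgds, the prostaglandin D2 synthase, a gene induced by glucocorticoids (chr2:25466709-25470046), had the smallest adjusted p of all genes called. It had 69691, 74577 and 58333 normalized reads in BCAA-free TAC, with 19406, 30655 and 33438 in control diet TAC, 64981, 41601 and 46279 in BCAA-free sham and 21119.7, 24468 and 19808 in control diet sham. BCAA-free TAC was above control diet sham without overlap (1.63 ± 0.10, adjusted p = 0.000575, called in all 6 fits without 1 library). Control diet TAC stood at 0.32 ± 0.20 (adjusted p = 0.318) and BCAA-free sham at 1.20 ± 0.18 (adjusted p = 0.0261). With Lcn2 and Hif3a it made up the 3 risen of 19 glucocorticoid-responsive genes, beside 0.745% of all genes. Of these 19, 0 fell, and the median was 0.07. Hif3a, a hypoxia-inducible factor subunit, stood at 1.10 ± 0.23 (adjusted p = 0.0456), lost without any library except control diet sham 2 (0.0652 to 0.139). Of 22 metallothionein and oxidative stress genes 2 rose: Mt1, a metal-binding protein, at 0.80 ± 0.10 (adjusted p = 0.0114; 0.0574 without BCAA-free TAC 3), and Gpx3, a secreted glutathione peroxidase, at 0.48 ± 0.091 (adjusted p = 0.0338; lost without any of the BCAA-free TAC libraries or control diet sham 3, 0.0571 to 0.116).

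Nr1d1, the clock repressor Rev-erb alpha, was the 1 of 19 clock genes that was called. Of all genes, 0.745% were called higher and 0.939% lower. Nr1d1 was lower. It had 4859.5, 5398 and 5458 normalized reads in BCAA-free TAC, against 7832, 7163 and 8297 in control diet sham (-0.57 ± 0.074, adjusted p = 0.0092, called in all 6 fits without 1 library), beside -0.65 ± 0.11 in control diet TAC. Other clock genes varied widely among the sham libraries: Arntl, the core activator, had 303, 332 and 268 in BCAA-free TAC, against 2047, 294 and 1125 in control diet sham. Of 28 sterol and fatty acid synthesis genes 2 fell, beside 0.939% of all genes. Scd2, a fatty acid desaturase, stood at -0.47 ± 0.082 (lost without BCAA-free TAC 1 or 3 or control diet sham 3, adjusted p 0.0721 to 0.0958). Srebf1, the transcription factor of these genes, stood at -0.30 ± 0.062 (lost without any 1 library, 0.0559 to 0.155). At an unadjusted p under 0.05, 12 of the 28 were lower and 0 higher, and 22 were below 0 (49.3% of all genes tested were). edgeR called Scd2 and Srebf1, and DESeq2 called 5 members lower. Of 23 ubiquitin ligase and autophagy genes Map1lc3a, an autophagosome protein, was called, at 0.32 ± 0.062. Of 75 cytosolic ribosomal protein genes Rps21 was called, at 0.41 ± 0.086. These calls, 1 in each list, stand beside 0.745% of all genes called higher. Both calls were lost without any of the BCAA-free TAC libraries or control diet sham 3 (0.079 to 0.15). The ribosomal protein genes had a median of 0.22, and at an unadjusted p under 0.05, 44 were higher and 0 lower; edgeR called 0 of the 75 and DESeq2 16 higher. Of 22 endoplasmic reticulum chaperone and unfolded protein response genes 0 were called by limma (at an unadjusted p under 0.05, 1 was higher and 9 lower) or edgeR and 4 by DESeq2, and all 22 intervals lay within 1.5-fold.

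Markers of other cell types gave these values, beside 0.745% of all genes called higher and 0.939% called lower. Of 12 markers of activated fibroblasts, limma called 1 (Cthrc1), edgeR 3 and DESeq2 6, all higher. Before adjustment, 6 of them had p under 0.05 by limma, again all higher. With 1 library left out limma called 0 to 5. The median log2 difference was 0.31, beside 2.07 in control diet TAC. Their summed level ran from 22152 to 29850 normalized reads in BCAA-free TAC, from 77724 to 142679 in control diet TAC and from 19855 to 22556 in control diet sham. Of 12 fibroblast markers 0 were called by limma (4 higher at an unadjusted p under 0.05) or edgeR and 2 by DESeq2, with sums of 165266 to 181784 in BCAA-free TAC, against 161593 to 190514 in control diet sham. Of 12 endothelial markers Cldn5 and Aplnr, the apelin receptor, fell; their sum ran from 115736 to 122307 in BCAA-free TAC and from 124542 to 136333 in control diet sham. Aplnr stood at -1.02 ± 0.17 (adjusted p = 0.0335), lost without BCAA-free TAC 1 or 2 or control diet sham 1 or 3 (0.0583 to 0.143). Of 14 macrophage markers Lyve1 and Ccr2 rose, with sums of 29009 to 36516 in BCAA-free TAC, against 25239 to 33076 in control diet sham. Ccr2, the chemokine receptor of recruited monocytes, stood at 1.16 ± 0.21, lost without any of the BCAA-free TAC libraries or control diet sham 3 (0.0614 to 0.123), and Lyve1, a marker of resident macrophages and of lymphatic vessels, at 0.55 ± 0.081, lost without BCAA-free TAC 3 or control diet sham 3 (0.0724 and 0.0574).

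Atrial, fat and epicardial genes varied between libraries. The 5 atrial markers tested, Nppa among them, summed to 75453 to 113286 normalized reads in BCAA-free TAC, against 17694 to 61228 in control diet sham. Sln, sarcolipin, chiefly an atrial gene, had 2876, 2633 and 3479 in BCAA-free TAC, against 2274, 3354 and 386 in control diet sham, where library 3 was low; 0 of the 5 were called by limma (1 at an unadjusted p under 0.05) or edgeR, and DESeq2 called 1, Nppa. Their part in the values of Nppa was not tested. Of 9 adipocyte markers, Adipoq, adiponectin, and Cidec, a lipid droplet protein, rose. Adipoq had 128, 171 and 318 in BCAA-free TAC, against 72.7, 63.9 and 48.5 in control diet sham (1.63 ± 0.32, adjusted p = 0.0419), lost without any library except BCAA-free TAC 1 (0.0504 to 0.154). Cidec had 114, 149.6 and 261 in BCAA-free TAC, against 47, 52.8 and 50.8 in control diet sham (1.70 ± 0.28, adjusted p = 0.0209), lost without BCAA-free TAC 2 or 3 or control diet sham 3 (0.0614 to 0.0737). The median of the adipocyte markers was 1.58, and their sum, chiefly Fabp4, ran from 46234 to 49376 in BCAA-free TAC and from 43776 to 49477 in control diet sham. The 9 epicardial and mesothelial markers had a median of 1.60 with 0 called by limma (at an unadjusted p under 0.05, 4 were higher and 1 lower) or edgeR and 1 by DESeq2; Upk3b had 149, 175 and 224 in BCAA-free TAC, against 154, 71 and 8.34 in control diet sham. Among 6 neutrophil markers Lcn2 alone was called, and among markers of smooth muscle and pericytes, lymphocytes, Schwann cells and nerve, red blood cells and skeletal muscle 0 were called by limma (in that order, 3, 1, 3, 0 and 2 at an unadjusted p under 0.05) or edgeR, and 3, 0, 2, 0 and 0 by DESeq2.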

How the data were processed

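Poly(A) RNA from mouse hearts, extracted with Trizol per the labels, was sequenced as 12 libraries in 4 groups of 3. The authors deposited tables of normalized counts (the signal used here), each with reads per gene divided by 1 size factor per library; Trimmomatic 0.36, STAR 2.5.2b, Subread 1.5.2, DESeq2 and the builds GRCm38 and mm10 are named in the submitters' processing notes. The authors' deposited log2 fold changes and p-values were not used. From the smallest step between values in each library, 100% of values came out as whole reads (tolerance 0.0001), and 212169 values held by more than 1 table gave the same reads. No gene in the tables has under 61 reads in all, so a gene low in both groups of a table is not listed; 17493 genes were joined, and 139 and 840 more were in 1 of the joined tables only.

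Reads were divided by median-of-ratios size factors over the 6 libraries, the other 6 libraries being scaled to the same geometric mean. Genes averaging 10 normalized reads or more were tested by limma 3.58.1 (trend and robust options) in R 4.3.3 on log2(value + 1), which understates the change of low genes, with Benjamini-Hochberg adjustment over all of them. Every adjusted p without another tool's name is limma's, log2 differences are given with their SE, and every group has 3 libraries. On simulated data (17384 genes) limma called 73% of the genes given a log2 change of 1 and 38.4% of those given 0.5, with 4.31% of calls on unchanged genes. The same simulation put 68.7% of unchanged genes inside the 1.5-fold margin. It drew each gene independently, with no shift shared by many genes of a library beyond its size factor. Its share of calls on unchanged genes therefore does not measure that share in these data. Alternatives were edgeR 4.0.16 and DESeq2 1.42.0 on the recovered reads, other scalings, filters and pseudocounts, all 12 libraries, a replicate block and each library left out. Leaving out the 3 libraries high in structured RNAs was chosen after seeing the data.

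Members and gene lists were chosen with earlier results of these data known. Named genes were the 8 largest rises and falls of called genes that averaged 50 or more and whose groups did not overlap. To these came the 8 risen and 8 fallen near responders with the largest control diet response. They had to average 50 or more over control diet TAC and sham, with no overlap between those 2 groups. Predicted genes, Rik genes and some clone names were skipped in these picks. From each list up to 4 called members were taken by adjusted p. Called responders within 1.5-fold of control diet TAC and a set of cardiac, matrix and BCAA genes completed the rule. A gene named by this rule is not reported here. Igf1, Pdk4, Cd74, Arntl, Sln, Upk3b, Fabp4, Cenpf, Mybpc2, Myom1 and the called cell cycle genes and opposite responders beyond this rule were chosen after their values were seen. Positions are from GENCODE M21 (GRCm38) and promoters from RefSeq (GRCm38.p6).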

Additional observations from a re-analysis of the deposited data

How the results depend on the processing

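The count of 294 genes (130 higher, 164 lower) ran from 39 to 532 without 1 library (14 to 208 higher, 25 to 324 lower). It was 1206 (519 and 687) with DESeq2, 113 (68 and 45) with all 12 libraries in the fit and 120 (27 and 93) without the 3 libraries high in structured RNAs. With edgeR, TMM, other filters, pseudocounts or tables, or without the robust option, it was 216 to 299. Of the calls, 224 were shared with edgeR and 291 with DESeq2. The 177 near responders numbered 122 to 239 without 1 library, 86 without the 3 libraries, 19 and 487 with margins of 0.32 and 1 on the log2 scale, and 1569 with no minimum fold. The cause of these shifts was not tested, except that fewer libraries or another margin enter by construction.

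With the replicate number as a block, 953 genes were called (424 higher, 529 lower), 287 of them among the 294, 213 responders were near sham, 78 called the same way and 35 the opposite way, and Postn and Mki67 were called (adjusted p = 0.0376 and 0.0409). Same-numbered libraries of the 2 groups had correlations of 0.08, -0.103 and -0.00352 of their deviations. In 2 of 3 cases another number correlated better. The labels do not say whether same-numbered libraries share a batch, and so few libraries cannot decide it.

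Of the other comparisons, control diet TAC against sham ran from 1280 to 4527 calls without 1 library, BCAA-free TAC against control diet TAC from 1149 to 5915, BCAA-free sham against control diet sham from 51 to 1087 and BCAA-free TAC against BCAA-free sham from 543 to 1240 (1369 with all). The last 2 gave 251 and 608 calls with the block, and BCAA-free sham 1529 with DESeq2. In BCAA-free TAC against control diet sham, 0 of the 85 named genes had a call with its direction turned under these alternatives; for the other comparisons this was not computed. The shallowest of the 6 libraries held 76646229 reads, and the median 95% interval of a log2 difference was 0.51 wide.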

Other observations

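Apln, Nrarp, Pcdh12, Plxnd1 and Ptprb lie outside the naming rule, were chosen after their values were seen and make up no list that was tested. They were called lower in BCAA-free TAC than in control diet sham in all 6 fits that left out 1 library. Apln, the peptide apelin, made by endothelial tip cells, had 746, 778 and 717 normalized reads in BCAA-free TAC, with 1614, 1261 and 1148 in control diet TAC, 863, 859 and 955 in BCAA-free sham and 1766, 1324 and 1886 in control diet sham. BCAA-free TAC was the lowest group without overlap, -1.13 ± 0.12 from control diet sham (adjusted p = 0.00483, limma), while control diet TAC stood at -0.31 ± 0.17 (adjusted p = 0.264) and BCAA-free sham at -0.88 ± 0.12 (adjusted p = 0.0102). Nrarp, a Notch-regulated protein, fell by 1.09 on the log2 scale (adjusted p = 0.0089), Pcdh12, an endothelial protocadherin, by 0.80 (adjusted p = 0.00566), Plxnd1, the semaphorin receptor plexin D1, by 0.59 (adjusted p = 0.0089) and Ptprb, a phosphatase of vascular endothelium, by 0.50 (adjusted p = 0.008). In BCAA-free sham against control diet sham, Nrarp stood at -1.23, Pcdh12 at -0.88, Plxnd1 at -0.57 and Ptprb at -0.19 (adjusted p = 0.00684, 0.0331, 0.00457 and 0.0758). The 12 endothelial markers had a median log2 difference of -0.18 with 2 called, and their part in these values was not tested.

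Cyp1a1, a cytochrome P450 induced through the aryl hydrocarbon receptor, also chosen after its values were seen, had 185, 109.8 and 52.5 normalized reads in BCAA-free TAC, with 4.22, 2.9 and 3.98 in control diet TAC, 88.6, 181 and 123 in BCAA-free sham and 13.8, 38.6 and 28 in control diet sham. Control diet TAC was the lowest group and was called against sham (-2.46 ± 0.44, adjusted p = 0.00826). BCAA-free TAC lay above control diet sham without overlap but was not called by limma (2.01 ± 0.51, adjusted p = 0.0913) or edgeR (0.0704), while DESeq2 called it (0.000135), and it was 4.47 ± 0.45 from control diet TAC (adjusted p = 0.000535).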
